A study of Mus musculus with 12 samples.

Results

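Among the genes of cell division, 40 were followed in the ribosome-bound RNA of spinal cord microglia: genes that copy DNA, the cyclins and kinases that drive the cycle, and the machinery that separates chromosomes. The members were taken by gene symbol from a fixed list, and all 40 were found among the 39017 gene IDs of the count table. Of these, 39 had enough counts to be tested, and the motor gene Cenpe did not pass the filter on low counts. In a dividing cell, origins of replication are first loaded with the MCM helicase, S phase then needs the sliding clamp and a supply of deoxynucleotides, and mitosis needs cyclin B with Cdk1, the Aurora and Polo kinases, and the spindle. Adult microglia divide rarely in the healthy cord, and their number rises in inflammation such as experimental autoimmune encephalomyelitis (EAE), a mouse model of multiple sclerosis.

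Spinal cord gave 6 libraries labelled Kdm6a cKO (cKO 1 to 6), a conditional knockout of this X-linked histone demethylase gene, and 6 labelled wildtype (WT 7 to 12). All 12 came from female C57BL/6 mice with EAE that carried Tmem119-Cre and RiboTag, so both groups had Cre, driven by a microglial gene, and a tagged ribosomal protein by which ribosomes of cells with Cre are captured from the cord. The sources used here do not give age, the day of disease or pooling of animals. Whether each library was 1 animal is also not said, and p-values then reflect only how these libraries varied, which may be technical.

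The libraries held 19040115 to 26296071 counts. Levels are in CPM, a count scaled to library size (with TMM factors), on which 3 counts stood at 0.109 to 0.157 CPM. Microglial markers were read in every library, with Tmem119 at 201 to 630 CPM in cKO and 295 to 421 CPM in WT. Kdm6a averaged 2.79 ± 1.06 CPM in cKO and 4.53 ± 1.17 CPM in WT (SD, n = 6 each), counted over the whole gene, so exons left in place are included. Its level in the library labelled cKO 2 (4.5 CPM) lay inside the WT range, and its log2 fold change of -0.70 ± 0.25 (SE) did not pass (adjusted p = 0.117, edgeR). Markers of neurons, glia and vessels stood apart in cKO 1, 2 and 4: their first principal component, called the CNS marker component, was 1.41 in cKO 1, 1.85 in cKO 2, 1.5 in cKO 4 and below 0 in the other 9 libraries. In such bulk RNA, fewer cells of a type and less RNA per cell cannot be told apart.

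Within each genotype the cell cycle genes ranged widely from library to library, and the ranges of the genotypes lay over each other for all members but Gins2. Library cKO 5 was the highest of its group for 26 of the 40 members and cKO 6 for 12, while cKO 1 was the lowest for 29. In WT the highest was WT 12 for 26 members and WT 11 for 10, and the lowest was WT 7 for 31. For 31 of the 40 members the cKO range held the whole WT range. The mean log2 CPM of the tested members was 1.64, 2.49, 2.46, 3.34, 4.05 and 3.88 in cKO 1 to 6, and 2.0, 2.50, 3.22, 2.75, 3.44 and 3.64 in WT 7 to 12. High and low libraries were thus present in both groups.

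**Figure D1:**
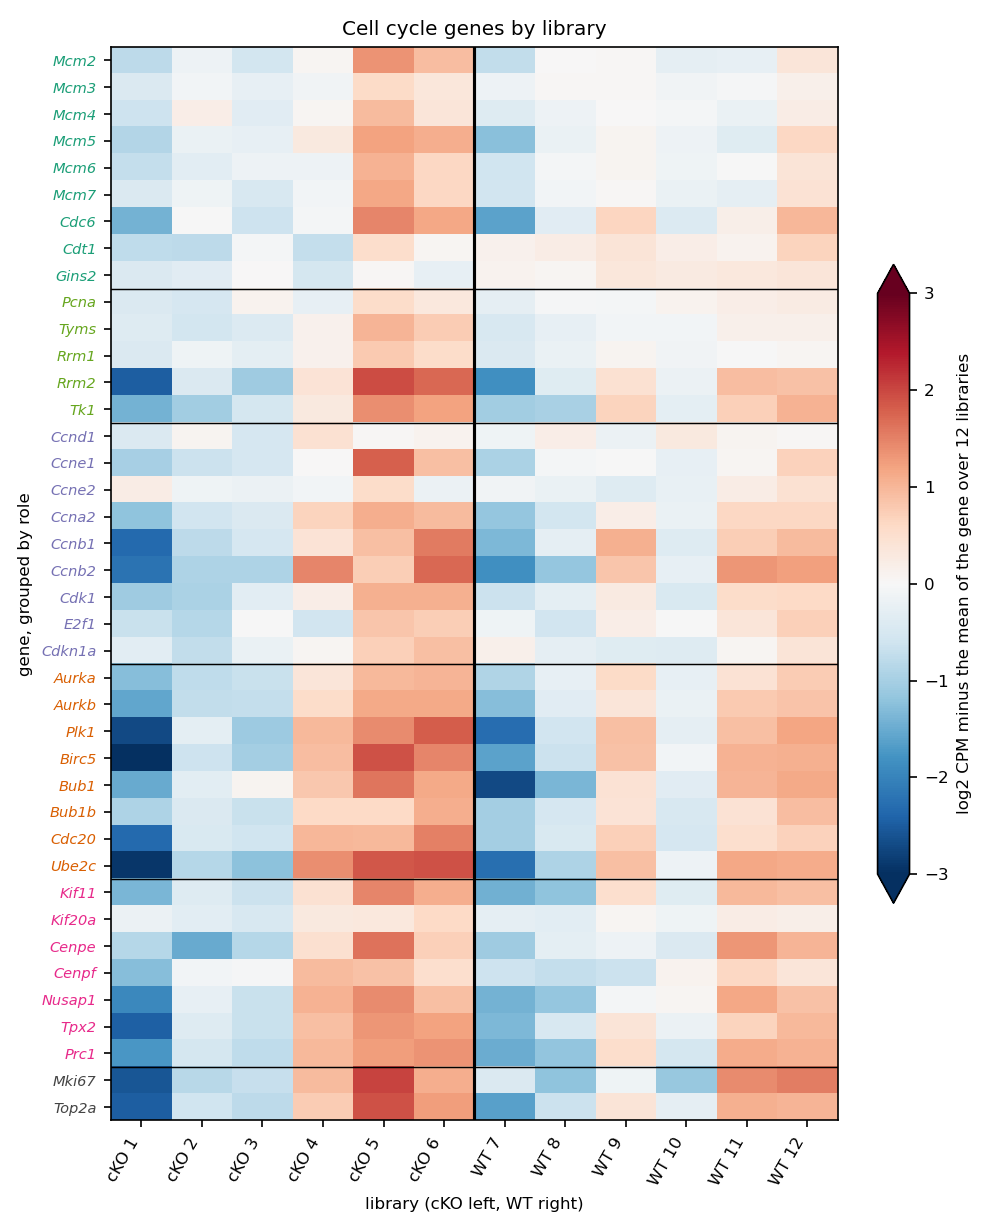
Log2 CPM (prior count 2) of the 40 members, each row less the mean of that gene over the 12 libraries, with cKO libraries left and WT libraries right of the black line and horizontal lines between the roles; colours stop at 3 in either direction. The columns of cKO 5, cKO 6, WT 11 and WT 12 are mostly red and those of cKO 1 and WT 7 mostly blue, while Gins2 is bluer in the cKO columns.

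The pair of genes most used to mark dividing cells show this range. Top2a, the topoisomerase that untangles chromosomes, had a lowest, median and highest level of 1.5, 10.4 and 33.5 CPM in cKO and of 2.80, 9.40 and 18.6 CPM in WT. Mki67, which encodes the Ki-67 protein on the surface of mitotic chromosomes, stood at 0.047, 0.987 and 3.34 CPM in cKO, from 1 to 84 counts, and at 0.261, 0.602 and 2.33 CPM in WT, from 5 to 45 counts. The cKO range held the whole WT range for both genes, with cKO 1 lowest and cKO 5 highest of all 12 libraries. Fold changes of cKO over WT, on the log2 scale, were 0.37 ± 0.62 for Top2a and 0.27 ± 0.73 for Mki67 (SE), at an adjusted p of 0.787 and 0.874 (edgeR quasi-likelihood test). The 95% intervals ran from -0.84 to 1.58 for Top2a and from -1.16 to 1.70 for Mki67, so that a log2 fold change of 1 lay inside both. Without cKO 5 the estimates were -0.13 for Top2a and -0.33 for Mki67, with limma-voom sample weights -0.97 and -1.39, and neither gene passed in any alternative in which it was tested (22 for Top2a and 21 for Mki67).

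**Figure D2:**
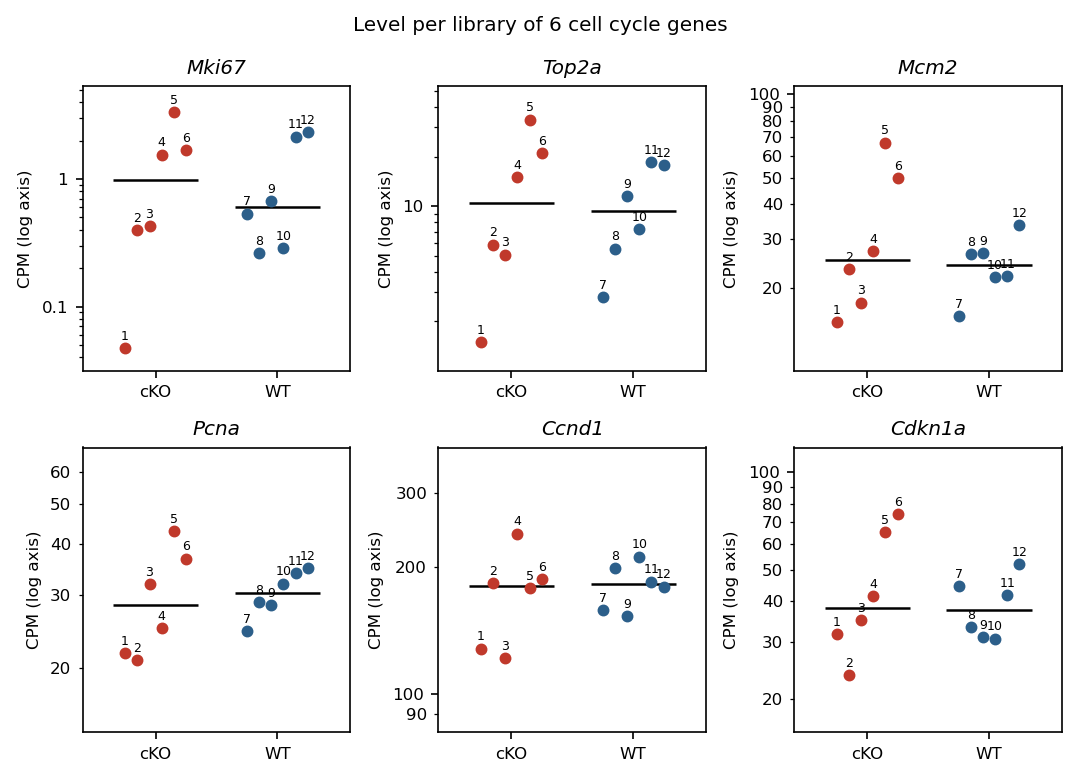
CPM on a log axis in each library for 6 members, cKO left of WT; each point is 1 library with its replicate number and the black line is the median of 6. Mki67 and Top2a spread over more than 10 times within cKO, whereas Ccnd1 stayed between 122 and 241 CPM in all libraries.

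Across the whole list, 1 of 39 tested members passed an adjusted p of 0.05, against 5.87% of all 15015 genes tested. That member, Gins2, fell in cKO, as 3.43% of all genes did, and it was also the 1 member whose groups did not overlap, as 4.13% of all genes did not. None was called higher, where 2.44% of all genes were; by an unadjusted p under 0.05 edgeR also put 0 members higher and 2 lower, and both DESeq2 and limma-voom with sample weights called 0 higher. Unadjusted p under 0.05 was reached by 5.13% of the members and 23.8% of all genes. The median SE was 0.40 for the members and 0.17 for all genes, and for 22 of the 39 the 95% interval reached past a log2 fold change of 1.

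Log2 fold changes were above 0 for 34 of 39 members and 8200 of 15015 genes in edgeR, with medians of 0.27 and 0.03, but this direction changed with the method and with single libraries. In limma-voom with sample weights, which changes both the model and the weight of each library, none of the 39 was above 0 (median -0.56), without cKO 5 it was 19 of 39 (median -0.01), and without cKO 6 it was 23 of 39 (median 0.07). The mean log2 CPM of the members, averaged over libraries with equal weight, came to 2.98 ± 0.94 (SD, n = 6) in cKO and 2.93 ± 0.62 (SD, n = 6) in WT. The median log2 fold change was 0.09 without WT 7 and 0.14 without WT 8. Adding the CNS marker component gave 0.66, and it was 0.56 without cKO 1 and the library labelled cKO 2 and 0.66 without cKO 1, 2 and 4. In each of these fits no member was called higher.

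**Figure D3:**
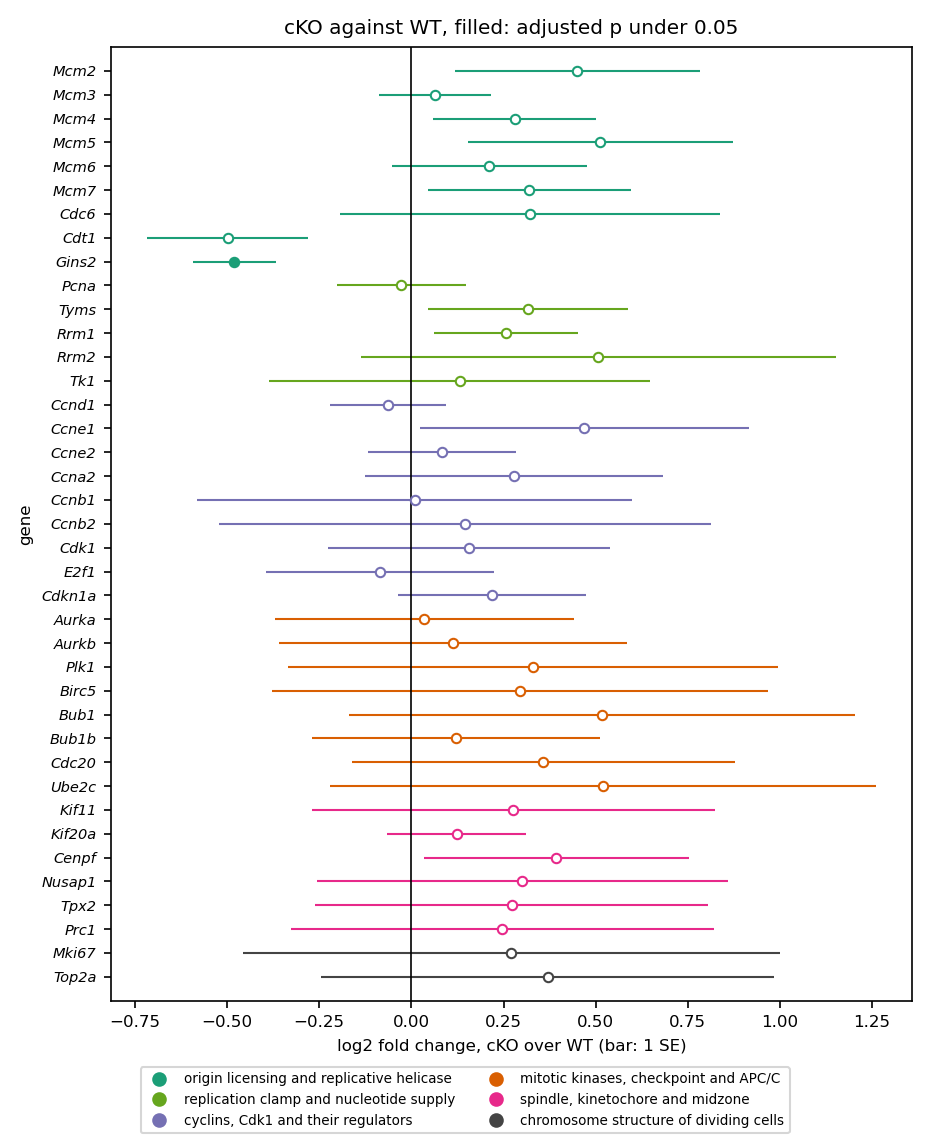
Log2 fold change of cKO over WT for the 39 tested members with 1 SE to either side, coloured by role; a filled point marks an adjusted p under 0.05. Gins2 is the filled point, at -0.48, with Cdt1 beside it at -0.50; 34 members lie right of 0 in this fit, against 0 with limma-voom sample weights and 19 without cKO 5.

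Among the 9 genes of origin licensing and the helicase, Mcm2 to Mcm7 encode the ring that unwinds DNA, Cdc6 and Cdt1 load it onto origins, and Gins2 is a subunit of the GINS complex that activates it. Mcm2 stood at 15.0, 25.2 and 66.9 CPM (lowest, median and highest) in cKO and at 15.8, 24.2 and 33.8 CPM in WT, or 0.45 ± 0.33 as log2 fold change (SE; adjusted p = 0.463, edgeR). Mcm5 ran at 14.6, 28.6 and 63.2 CPM in cKO and at 11.2, 23.9 and 41.9 CPM in WT (0.51 ± 0.36, adjusted p = 0.434). For Mcm6 the levels were 19.7, 28.9 and 67.0 CPM in cKO and 21.4, 31.4 and 42.0 CPM in WT (0.21 ± 0.27, adjusted p = 0.696). In all 3 the medians of the groups lay close together and cKO 5 and 6 lay above every WT library. Mcm3 was steadier, at 54.2, 68.1 and 109 CPM in cKO and 65.6, 72.2 and 80.9 CPM in WT (0.06 ± 0.15, adjusted p = 0.855). Mcm4 (0.28), Mcm7 (0.32) and Cdc6 (0.32) also did not pass.

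Gins2 alone passed. Its level was 41.4, 44.0, 56.3, 38.5, 57.5 and 47.1 CPM in cKO 1 to 6 and 60.2, 57.6, 70.6, 67.5, 69.9 and 71.8 CPM in WT 7 to 12. The groups did not overlap, cKO being lower, though cKO 5 and WT 8 nearly met. The log2 fold change was -0.48 ± 0.11 (SE, n = 6 each), at an adjusted p of 0.0236 (edgeR quasi-likelihood). Permuting the CPM values exactly, two-sided, gave p = 0.00216, the smallest that 6 against 6 allows and the 1 value under 0.05 among 14 members so tested. Groups that do not overlap always give this smallest value, so it restates their separation, and the 14 members were chosen in part by p. Gins2 passed in 14 of 22 alternatives and in 7 of the 12 fits without 1 library. It was lost without cKO 1, cKO 4, WT 9, WT 11 or WT 12 (adjusted p from 0.0536 to 0.0649, edgeR). It stayed without the library labelled cKO 2 (0.0497). The call was also lost with the CNS marker component (-0.33 ± 0.11, adjusted p = 0.0853), without cKO 1 and 2 (-0.41 ± 0.13, adjusted p = 0.120) and without cKO 1, 2 and 4 (-0.28 ± 0.11, adjusted p = 0.199).

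The Gins2 gene shares most of its exon bases with another. On chromosome 8 of mm10, Gins2 (chr8:120578633-120589304, minus strand) meets Gse1 (chr8:120228456-120581390, plus strand), a chromatin-associated gene, tail to tail. Of the 4097 exon bases of Gins2 in GENCODE M21, 2758 (67.3%) are also exon bases of Gse1 on the other strand. Gse1 averaged 54.1 ± 10.6 CPM in cKO and 78.0 ± 8.51 CPM in WT (SD, n = 6 each), and it fell as well, by 0.53 ± 0.13 on the log2 scale (adjusted p = 0.0285, edgeR; lost without cKO 1, cKO 4, WT 9, WT 10, WT 11 or WT 12, with library totals without Apoe, and without cKO 1 and 2 or 1, 2 and 4). The ratio of Gins2 to Gse1 was 0.72 to 1.40 in cKO and 0.79 to 0.93 in WT. The library kit kept strand, but the sources used here do not give the strand setting of the counting, so reads of the pair cannot be told apart.

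The other subunits of the GINS complex did not pass. Gins1 averaged 5.38 ± 4.5 CPM in cKO and 4.06 ± 1.04 CPM in WT. Gins3 averaged 3.35 ± 0.38 CPM in cKO and 2.92 ± 0.16 CPM in WT, and Gins4 averaged 28.4 ± 3.96 CPM in cKO and 30.1 ± 1.68 CPM in WT (SD, n = 6 each). Their log2 fold changes were 0.41 ± 0.40, 0.20 ± 0.13 and -0.09 ± 0.10 (SE), with adjusted p of 0.593, 0.377 and 0.666 (edgeR). Per kilobase of exon, Gins2 stood at 11.6 CPM in cKO and 16.2 CPM in WT, the third highest member after Ccnd1 and Mcm3 in WT.

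**Figure D4:**
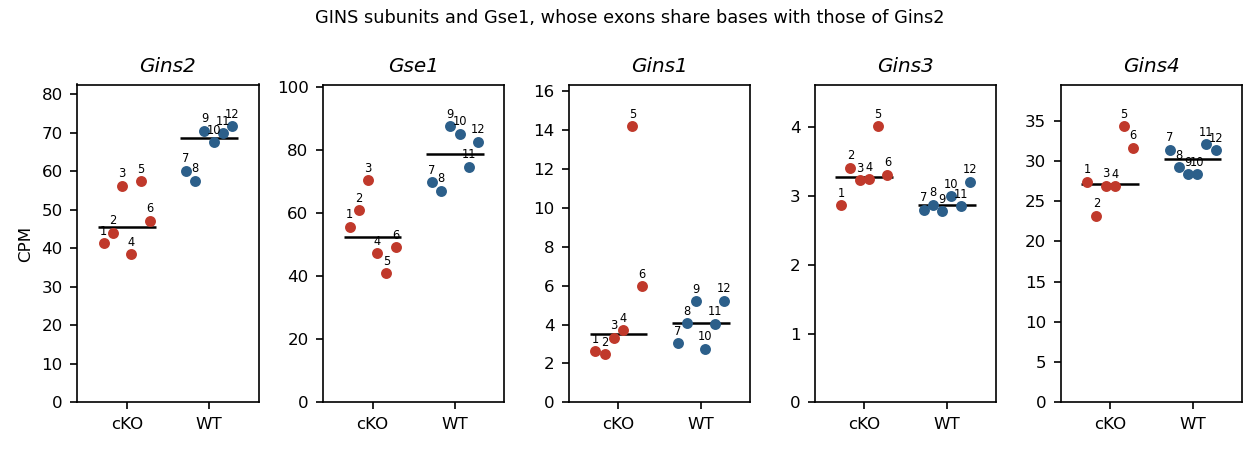
CPM per library (linear axes from 0) of Gins2, its overlapping neighbour Gse1 and the other GINS subunits, cKO left of WT; points are libraries with their replicate numbers, and lines are medians of 6. Gins2 and Gse1 are lower in cKO, with Gse1 overlapping in cKO 3, while Gins1, Gins3 and Gins4 overlap between the groups.

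Cdt1, the loading factor degraded once S phase starts, came next by p. Its levels were 16.5, 22.3 and 41.0 CPM in cKO and 30.4, 32.7 and 45.3 CPM in WT (lowest, median and highest), and 5 of 6 cKO libraries, all except cKO 5, lay below the lowest WT library. The log2 fold change of -0.50 ± 0.22 did not pass (adjusted p = 0.182, edgeR; exact two-sided permutation p = 0.0584). It passed without cKO 5 (-0.70, adjusted p = 0.0183), with 1 surrogate variable (-0.46, adjusted p = 0.00828) and with limma-voom sample weights (-0.90, adjusted p = 0.00214). After adding the CNS marker component it was -0.08 ± 0.13 and without cKO 1, 2 and 4 it was -0.08 ± 0.16. Its exons share no base with those of Gm20388, the overlapping gene found among protein-coding, antisense, lincRNA and processed transcript genes. Genes of other types were not compared.

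Of the 5 genes of the clamp and of nucleotide supply, none passed. Pcna, the sliding clamp of DNA polymerase, stood at 20.9, 28.4 and 42.9 CPM in cKO and 24.5, 30.4 and 34.9 CPM in WT, or -0.03 ± 0.18 as log2 fold change (adjusted p = 0.951, edgeR). Counts of Pcna are uncertain, because the processed pseudogene Pcna-ps2 took 35% ± 1.28 (SD, n = 6) of the sum of the pair in cKO and 35.3% ± 1.40 (SD, n = 6) of it in WT. That share stayed within 32.7% to 36.3% in cKO and 33.3% to 37.6% in WT. Rrm1, the large subunit of ribonucleotide reductase, stood at 21.2, 29.0 and 49.7 CPM in cKO and 21.4, 27.7 and 30.7 CPM in WT (0.26 ± 0.19, adjusted p = 0.476). Rrm2, the small subunit that limits the enzyme to S phase, ranged far more, from 0.75 to 18.4 CPM in cKO and from 1.23 to 8.90 CPM in WT (0.51 ± 0.64, adjusted p = 0.702). The thymidylate genes Tyms (0.32) and Tk1 (0.13) did not pass either.

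The 9 cyclins and regulators held both steady and variable members, and none passed. Ccnd1, cyclin D1, which links growth signals to the cycle and had the highest level per kilobase, stood at 122, 181 and 241 CPM in cKO and 153, 182 and 212 CPM in WT. Its log2 fold change was -0.06 ± 0.16 (adjusted p = 0.864, edgeR), and its highest library in cKO was cKO 4, not cKO 5 or 6. Cdkn1a, the p53-induced inhibitor p21, stood at 23.7, 38.2 and 74.4 CPM in cKO and at 30.7, 37.6 and 52.0 CPM in WT (0.22 ± 0.26, adjusted p = 0.670). It was highest in cKO 6, cKO 5 and WT 12, and the second highest WT library was WT 7 (44.5 CPM), which was the lowest of its group for most members.

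E2f1, the transcription factor released by Rb at the start of S phase, stood at 9.07, 13.6 and 29.1 CPM in cKO and at 11, 17.6 and 27.1 CPM in WT (-0.09 ± 0.31, adjusted p = 0.907, edgeR). Ccnb1, cyclin B1 of mitosis, was low, at 0.09, 0.87 and 2.67 CPM in cKO and 0.29, 1.08 and 1.85 CPM in WT (0.01 ± 0.59, adjusted p = 0.996). Of the rest, Ccne1 had 0.47, Ccna2 0.28, Cdk1 0.16, Ccnb2 0.15 and Ccne2 0.08 as the log2 fold change. None of these passed, and the groups overlapped in each.

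No member with a role in mitosis passed. Of 8 mitotic kinase, checkpoint and anaphase-promoting complex genes, log2 fold changes in edgeR ran from 0.04 for Aurka to 0.52 for Ube2c, with adjusted p from 0.717 to 0.973; of 6 tested spindle and kinetochore genes, they ran from 0.12 for Kif20a to 0.39 for Cenpf, with adjusted p from 0.564 to 0.854. Ube2c, the ubiquitin-conjugating enzyme of that complex, ran from 0.38 to 13.4 CPM in cKO and from 0.66 to 7.90 CPM in WT. Its activator Cdc20 ran from 0.89 to 14.2 CPM in cKO and from 2.39 to 8.09 CPM in WT. The kinase Plk1 ran from 0.70 to 18.3 CPM in cKO and from 0.99 to 11.6 CPM in WT, and Birc5, the survivin subunit of the Aurora B complex, from 0.38 to 17.5 CPM in cKO and from 1.48 to 9.84 CPM in WT. In all 4 the lowest libraries were cKO 1 and WT 7, and the ranges of the groups overlapped. Cenpe, a kinetochore motor and the untested member, had 3 to 38 counts in cKO and 4 to 25 in WT.

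The median spread within a group differed by role and was widest for genes of mitosis, but the roles overlapped. The SD of log2 CPM was 1.70 in cKO and 1.04 in WT for Rrm2, and 1.08 in cKO and 0.92 in WT for Cdc6. For the spindle gene Kif20a it was 0.43 in cKO and 0.23 in WT. Median SDs of log2 CPM over the 6 libraries were 0.65 in cKO and 0.32 in WT for licensing and helicase genes, and 0.66 in cKO and 0.24 in WT for the clamp and nucleotide supply. They were 0.94 in cKO and 0.53 in WT for cyclins and regulators, 1.28 in cKO and 0.95 in WT for mitotic kinases and checkpoint genes, and 1.18 in cKO and 0.94 in WT for spindle genes. Top2a and Mki67 together had medians of 1.64 in cKO and 1.13 in WT. Over all tested members the medians were 0.95 in cKO and 0.63 in WT, and over all 15015 genes 0.35 in cKO and 0.20 in WT. Counting error of the members gave medians of 0.13 in cKO and 0.14 in WT, but was larger for members of few counts. It was 0.44 in cKO and 0.39 in WT for Mki67 and 0.43 in cKO and 0.59 in WT for Bub1, against 0.04 in both groups for Mcm3. The part of counting error in the order of the roles was not tested. The SD was larger in cKO than in WT for 37 of 39 members (94.9%) and for 81.3% of all genes. In cKO the SD was lowest for Gins2 (0.24), Ccne2 (0.29) and Ccnd1 (0.37), and in WT it was lowest for Mcm3 (0.11), Gins2 (0.13) and Ccnd1 (0.18).

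**Figure D5:**
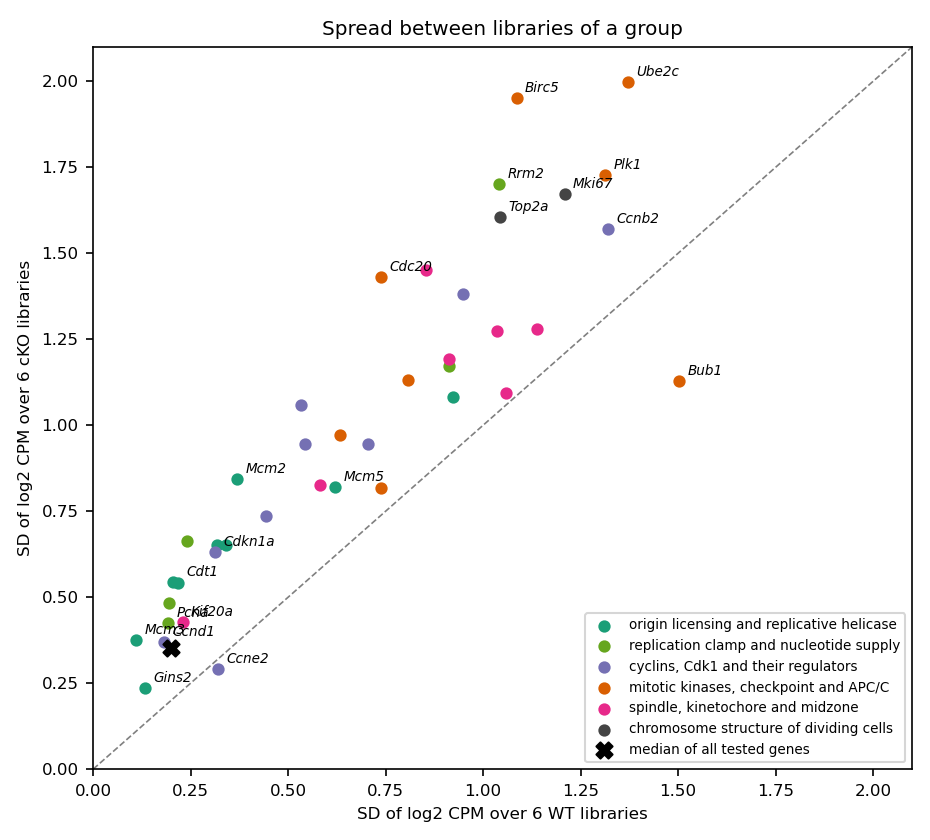
SD of log2 CPM over the 6 cKO libraries (vertical) against that over the 6 WT libraries (horizontal) for each of the 40 members, coloured by role; the dashed line marks equal SDs and the cross the medians of all tested genes (0.35 in cKO, 0.20 in WT). Mitotic genes such as Ube2c and Plk1 lie far from the cross and Gins2, Ccnd1 and Ccne2 close to it.

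Promoters of the members carry the short elements through which cell cycle genes are known to be timed: E2F sites in genes of S phase, and CCAAT boxes with a cell cycle homology region (CHR) in genes of mitosis. RefSeq promoter windows of GRCm38.p6, the assembly of mm10, reach from 250 bases before to 50 after a start, and 32 of the 40 members had one; Mcm4, Gins2, Ccnd1, Ccne2, Ccna2, Aurkb, Kif20a and Tpx2 had none. The letters searched on both strands were TTTGAA for the CHR, CCAAT for the CCAAT box, and TTTCCCGC, TTTGGCGC, TTTCGCGC or TTTGCCGC for the E2F site. Shown 5′ to 3′ are 3 mitotic genes of wide range (Ube2c, chr2:164769679-164769978, plus strand; Plk1, chr7:122159185-122159484, plus strand; Cdc20, chr4:118437294-118437593, minus strand) and 3 licensing genes (Mcm5, chr8:75109259-75109558, plus strand; Cdc6, chr11:98907901-98908200, plus strand; Cdt1, chr8:122567765-122568064, plus strand). Capitals mark these letters on either strand.
Ube2c: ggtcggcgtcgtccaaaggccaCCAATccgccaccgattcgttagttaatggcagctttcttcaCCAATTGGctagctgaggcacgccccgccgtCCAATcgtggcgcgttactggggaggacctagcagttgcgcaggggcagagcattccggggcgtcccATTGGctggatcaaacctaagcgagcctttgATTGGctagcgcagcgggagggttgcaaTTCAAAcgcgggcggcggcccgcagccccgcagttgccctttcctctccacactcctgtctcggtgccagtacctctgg
Plk1: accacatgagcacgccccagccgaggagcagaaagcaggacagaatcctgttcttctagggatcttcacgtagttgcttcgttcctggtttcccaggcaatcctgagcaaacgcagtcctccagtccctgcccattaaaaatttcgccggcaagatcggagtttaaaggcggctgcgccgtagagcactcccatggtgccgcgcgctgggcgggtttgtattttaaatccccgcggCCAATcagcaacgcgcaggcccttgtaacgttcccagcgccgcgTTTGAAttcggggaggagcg
Cdc20: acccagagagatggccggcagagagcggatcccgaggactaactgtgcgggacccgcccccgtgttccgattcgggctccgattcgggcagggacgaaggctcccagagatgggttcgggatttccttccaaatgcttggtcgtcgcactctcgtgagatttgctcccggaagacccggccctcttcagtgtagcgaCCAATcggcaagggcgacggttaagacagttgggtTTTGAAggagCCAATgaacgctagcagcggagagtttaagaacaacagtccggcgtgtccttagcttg
Mcm5: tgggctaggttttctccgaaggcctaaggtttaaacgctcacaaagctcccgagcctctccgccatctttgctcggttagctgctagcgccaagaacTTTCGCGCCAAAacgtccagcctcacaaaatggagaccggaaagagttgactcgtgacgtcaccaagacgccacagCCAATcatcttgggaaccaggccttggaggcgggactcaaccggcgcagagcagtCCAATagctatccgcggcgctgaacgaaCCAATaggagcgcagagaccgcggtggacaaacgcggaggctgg
Cdc6: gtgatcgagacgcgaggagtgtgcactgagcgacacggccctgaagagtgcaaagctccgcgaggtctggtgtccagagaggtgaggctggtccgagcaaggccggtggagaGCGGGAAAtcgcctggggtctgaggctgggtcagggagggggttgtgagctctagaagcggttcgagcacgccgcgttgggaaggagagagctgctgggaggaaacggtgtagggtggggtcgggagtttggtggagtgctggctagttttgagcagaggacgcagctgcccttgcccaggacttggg
Cdt1: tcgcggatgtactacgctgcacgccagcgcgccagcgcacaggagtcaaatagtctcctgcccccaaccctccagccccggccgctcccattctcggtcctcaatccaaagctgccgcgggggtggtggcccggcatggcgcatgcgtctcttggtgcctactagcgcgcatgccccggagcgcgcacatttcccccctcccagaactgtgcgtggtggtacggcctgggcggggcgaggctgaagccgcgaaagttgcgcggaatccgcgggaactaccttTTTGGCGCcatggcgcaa

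The mitotic windows shown each hold CCAAT and CHR letters, and the licensing windows hold E2F letters. Among the 32 members, 13 held the CHR letters (40.6%, against 20.2% of all 27025 genes with a window), 23 the CCAAT letters (71.9% against 41.1%) and 7 the E2F letters (21.9% against 2.61%). All 13 with CHR letters also held CCAAT letters, so that 40.6% of the 32 members held both, against 7.97% of all genes. Of the 5466 genes with CHR letters among all genes with a window, 2155 also held CCAAT letters. By role, E2F letters were in 6 of 7 licensing genes and in none of the 14 windows of mitotic kinase, checkpoint, spindle and chromosome genes, of which 10 held CHR letters. E2F letters were also in 0 of 5 clamp and nucleotide supply genes and in 1 of 6 cyclins and regulators, so not all S phase genes held them. CCAAT letters were in 5 of 7 licensing genes. CHR letters were in 1 of 7 licensing genes and in 2 of 6 cyclins and regulators. The median SD of log2 CPM was 1.28 in cKO and 1.04 in WT for the 13 members with CHR letters, against 0.78 in cKO and 0.49 in WT for 18 tested members without, and 0.65 in cKO and 0.34 in WT for the 7 with E2F letters. For CCAAT letters it was 1.03 in cKO and 0.74 in WT for 22 tested members with them, against 1.06 in cKO and 0.53 in WT for 9 without. These matches describe letters in a window, and genes with the same letters share their role as well.

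Levels per kilobase of exon differed widely between members, and the roles overlapped. In WT the highest means were 38.5 CPM per kilobase for Ccnd1, 19.2 for Mcm3, 16.2 for Gins2, 12.7 for Pcna, 11.1 for Cdt1 and 11 for Cdkn1a. The lowest were 0.10 for Mki67 and 0.06 for Cenpe. In cKO the same quantity was 36.8 for Ccnd1, 20.1 for Mcm3, 0.12 for Mki67 and 0.06 for Cenpe. The median over genes of a role in WT was 6.30 CPM per kilobase for licensing and helicase genes and 1.97 for the clamp and nucleotide supply. It was 3.07 for cyclins and regulators, 2.05 for mitotic kinases and checkpoint genes, 0.53 for spindle genes and 0.64 for Top2a and Mki67. Single genes crossed these medians: in WT the licensing gene Cdc6 stood at 0.27 and the spindle gene Kif20a at 2.14 CPM per kilobase. Exon lengths are those of GENCODE M21, which may differ from the annotation behind the counts.

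In the other lists of cycle genes few members were called, beside the 2.44% higher and 3.43% lower of all genes. In edgeR, 0 of 54 tested genes of the replication machinery outside the members passed (2 higher at an unadjusted p under 0.05; 0 by DESeq2 and 4 lower by limma-voom with sample weights), with a median log2 fold change of 0.16. Of 65 tested mitosis genes, 1 fell and 64 did not pass (median 0.15). Of 37 other cyclin, CDK, E2F and Rb family genes, 1 rose, 1 fell and 35 did not pass (median 0.09). At an unadjusted p under 0.05 in edgeR, 8 of these mitosis genes were higher and 1 lower, and 2 of the cyclin list were higher and 2 lower. Of all genes, 23.8% reached this in either direction. Of the same mitosis genes DESeq2 called 2 higher and 1 lower, and limma-voom with sample weights 2 higher and 2 lower. Of the cyclin list DESeq2 called 1 higher and 1 lower, and limma-voom 3 higher and 3 lower. The medians of all 3 lists were below 0 with limma-voom sample weights, at -0.21, -0.42 and -0.12. Of 7 further CDK inhibitors 1 rose (1 higher and 1 lower by each of the other tools), and of 27 p53 targets 2 fell (median -0.06; 2 lower by DESeq2 and 5 lower by limma-voom).

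E2f2, an activator E2F related to E2f1, fell to 8.82 ± 5.57 CPM in cKO, against 23.6 ± 5.47 CPM in WT (SD, n = 6 each), which is -1.42 ± 0.35 as log2 fold change (SE; adjusted p = 0.0337, edgeR), and the groups did not overlap. Cdk6, a partner of D cyclins, rose to 5.0 ± 1.11 CPM in cKO, against 3.09 ± 0.59 CPM in WT (0.70 ± 0.18, adjusted p = 0.0380), with 5 of 6 cKO libraries above every WT library. Cdkn1c, the imprinted inhibitor p57, rose to 13 ± 6.19 CPM in cKO, against 5.97 ± 1.33 CPM in WT (1.12 ± 0.30, adjusted p = 0.0468). Ncapg2, a subunit of condensin II, fell to 1.13 ± 0.25 CPM in cKO, against 2.23 ± 0.75 CPM in WT (-0.97 ± 0.25, adjusted p = 0.0363).

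The p53 targets that fell were Tigar, a regulator of sugar metabolism, at 25.5 ± 7.42 CPM in cKO and 42.4 ± 3.72 CPM in WT (-0.74 ± 0.17, adjusted p = 0.0220, edgeR), and Gadd45a, a stress-induced growth arrest gene, at 5.54 ± 2.44 CPM in cKO and 11.6 ± 2.79 CPM in WT (-1.08 ± 0.28, adjusted p = 0.0422). In both, all 6 cKO libraries lay below every WT library, as in 2.80% of all genes. Cdkn1a, the best known p53 target, did not pass, at 0.22 ± 0.26 (-0.16 with limma-voom sample weights).

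These 6 calls were sensitive to single libraries. Of the 12 fits without 1 library, Tigar passed in 8 and was lost without cKO 1, WT 8, WT 9 or WT 11. E2f2 passed in 4 (without cKO 1, cKO 5, cKO 6 or WT 10), Cdk6 in 4 (without cKO 1, cKO 3, cKO 5 or WT 8) and Ncapg2 in 4 (without cKO 5, cKO 6, WT 7 or WT 8), and each was lost in the other 8. Gadd45a passed in 3 (without cKO 3, cKO 5 or cKO 6) and Cdkn1c in 2 (without cKO 5 or cKO 6). Over all alternatives the adjusted p of these genes reached 0.0850 for Tigar, 0.0949 for Cdk6, 0.140 for Gadd45a, 0.164 for E2f2, 0.172 for Ncapg2 and 0.460 for Cdkn1c, and none changed direction. With the CNS marker component added, 4 of them did not pass by edgeR: on the log2 scale Ncapg2 stood at -0.92 ± 0.30 (adjusted p = 0.0820), E2f2 -0.93 ± 0.31 (adjusted p = 0.0946), Gadd45a -0.69 ± 0.27 (adjusted p = 0.140) and Cdkn1c 0.31 ± 0.22 (adjusted p = 0.435).

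None of 12 genes of the growth factor axis of microglia passed in edgeR (2 higher and 2 lower at an unadjusted p under 0.05; 1 lower by DESeq2, and 2 higher and 4 lower by limma-voom with sample weights). Csf1r, the receptor that microglia need to survive and divide, averaged 6117 ± 1955 CPM in cKO and 4456 ± 287 CPM in WT (0.46 ± 0.21, adjusted p = 0.197). Its lowest library of all was cKO 5 (2811 CPM), which had the highest mean log2 CPM of the tested members (4.05). Its highest was cKO 4 (8140 CPM), where that mean was 3.34. In cKO 1, where the mean was lowest (1.64), Csf1r stood at 6459 CPM. A relation of Csf1r to the members was not tested.

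Markers of cells other than microglia also differed between the libraries. The summed CPM of 16 T and NK cell markers, of which 5 were tested, lay between 4.15 and 12.3 in cKO and between 6.53 and 19.6 in WT, and none of the 16 was at 0 in all libraries; of the 5, 1 fell and none had a log2 fold change above 0 (median -0.91). The sum was highest in cKO 6 (12.3) and cKO 5 (11.7) among cKO, and in WT 11 (19.6), WT 12 (16.9) and WT 10 (16.1) among WT. Member levels did not follow it throughout: cKO 4 had the lowest sum of all 12 libraries (4.15) with a mean member log2 CPM of 3.34, and WT 10 had a mean of 2.75. The summed CPM of the 10 microglial markers was lowest in cKO 5 (9794) and highest in cKO 4 (20832) among cKO, and lay between 12964 and 14834 in WT. Neuron markers (16 of 16 tested) summed to 325 to 1022 CPM in cKO and 287 to 418 CPM in WT, with 833 in cKO 1, 1022 in cKO 2 and 658 in cKO 4. Among the tested markers, 2 of 10 for microglia and 2 of 16 for neurons rose and none fell. Of all genes tested, 2.44% were called higher and 3.43% lower. Log2 fold changes were above 0 for 8 of the 10 microglial markers (median 0.43) and for 16 of the 16 neuron markers (median 0.82). The part of these cells in the spread of the members was not tested.

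Markers of other cell types that could hold dividing cells were also read, but their sums were not compared with member levels library by library. Markers of oligodendrocyte precursors (9 of 10 measured and tested) summed to 92.6 to 231 CPM in cKO and 71.1 to 102 CPM in WT. For monocytes and dendritic cells (16 markers, 7 tested) the sums were 287 to 2113 CPM in cKO and 564 to 1081 CPM in WT. Fn1 and Itgax together made up most of these sums. Fn1 stood at 149.9 CPM or more in cKO and at 225.9 CPM or more in WT. Itgax stood at 101.8 CPM or more in cKO and at 257.7 CPM or more in WT. The monocyte genes Ccr2 and Ly6c2 reached at most 0.48 and 1.63 CPM in cKO and 0.67 and 0.57 CPM in WT. Neutrophil markers (11, 2 tested) summed to 0.90 to 14.2 CPM in cKO and 1.69 to 4.89 CPM in WT, with Ly6g at 0 in all 12 libraries. For B and plasma cells (10 of 11 measured, 4 tested), the sum was 338 to 672 CPM in cKO and 203 to 291 CPM in WT. Most of it was Ighm, at 323 to 657 CPM in cKO and 180 to 270 CPM in WT. Without Ighm the sum was 14.4 to 25 CPM in cKO and 10.2 to 36.4 CPM in WT. By edgeR 1 of 4 tested B cell markers rose (median log2 fold change 0.11) and 1 of 8 tested endothelial markers fell (median 0.12), beside 2.44% higher and 3.43% lower of all genes. Tested markers of astrocytes (10, median log2 fold change 0.35), oligodendrocytes (10, 0.26), their precursors (9, 0.35), Schwann cells (7, 0.36), mural cells and fibroblasts (9, -0.77), ependymal cells (2, 0.14), monocytes and dendritic cells (7, 0.12), neutrophils (2, 0.42) and erythroid cells with platelets (3, -0.29) did not pass. The part of any of these in the levels of the members was not tested.

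Reads of 11 members could also come from a neighbour on the other strand that shares exon bases in GENCODE M21. Only protein-coding, antisense, lincRNA and processed transcript neighbours were compared. Apart from Gins2, the shares were 29.3% for Kif20a with Cdc23, 23.4% for Ccnd1 with LTO1, 22.8% for Ube2c with Tnnc2, 17.4% for Ccne2 with Ints8, 12.5% for Ccna2 with Exosc9 and 11.1% for Prc1 with Rccd1, and at most 7.25% for Mcm7, Nusap1, Cdc20 and Tk1. Of these neighbours Tnnc2 was not tested, and of the others Gse1 alone passed.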

How the data were processed

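The authors deposited raw read counts for 39017 Ensembl IDs in 12 libraries, made with a stranded mRNA kit (KAPA) per the labels. The submitters' processing notes name bcl2fastq 2.17, FastQC, Trimmomatic and mm10. Aligner, counter, strand setting and annotation release: not given in the sources used here. GENCODE M21 gave 37693 symbols, coordinates and exon lengths.

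After filterByExpr (15015 genes kept) and TMM scaling, cKO was compared with WT by edgeR 4.0.16 in R 4.3.3 (robust quasi-likelihood, Benjamini-Hochberg over all tested genes, threshold 0.05), and the code was tested on simulated data. The SE equals the absolute log2 fold change divided by the root of F, and log2 CPM used a prior count of 2. Intervals of 1.96 SE rest on the normal distribution and are narrower than the quasi-likelihood test would give. Depth was 19040115 to 26296071 counts. The floor of 3 counts reflects counting alone, as reads carried no molecular identifiers. Duplicate libraries were not found (chi-square over degrees of freedom at least 24.4).

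Members and 20 lists (371 of 374 genes matched) were chosen with earlier results of these data known. Members described in full were those called, the 5 of smallest p, the 5 of highest CPM, and Mki67, Top2a, Pcna, Mcm2, Ccnb1, Ccnd1, Cdkn1a and E2f1. Pathway lists gave up to 6 called genes and Csf1r. Chosen after seeing values: Gse1, Pcna-ps2, Gins1, Gins3, Gins4, the members given by range and the promoters shown. Alternatives were RLE scaling, totals without Apoe, DESeq2 1.42.0, limma-voom (limma 3.58.1) with sample weights, no filter, a mean of at least 5 CPM, the CNS marker component, 1 surrogate variable (sva 3.50.0), and omitted libraries.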

Additional observations from a re-analysis of the deposited data

How the results depend on the processing

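The count of genes called, 882 of all tested, ran from 460 to 2818 over the 12 fits without 1 library. It was 416 without cKO replicates 1 and 2, 557 without cKO replicates 1, 2 and 4, 1843 by DESeq2, 2418 with 1 surrogate variable and 4638 by limma-voom with sample weights. No member was called higher in cKO in any of the 22 alternatives. Members called lower, 1 with all libraries, numbered 0 to 2 in the fits without 1 library, 2 by limma-voom with sample weights, 2 after adding 1 surrogate variable, and 0 with the CNS marker component, without cKO replicates 1 and 2 and without cKO replicates 1, 2 and 4. The median log2 fold change of the tested members, 0.27, ran from -0.01 to 0.41 in the fits without 1 library, and was -0.56 with limma-voom sample weights. In that fit 34 members changed sign, without cKO replicate 5 it was 15, and none of the members that changed sign was called in either fit. No paired analysis was possible because the groups share no replicate numbers. Depth limited Mki67, Bub1, Ccnb1 and Cenpe, which had 3 or fewer counts in at least 1 library. Without cKO replicates 1, 2 and 4, Gins2 had a smaller fold change (-0.28) at a similar SE (0.11); the cause was not tested.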
